A study of Macaca mulatta with 4 samples.

Results

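The insulin-like growth factor (IGF) family was examined in RF/6A, a rhesus macaque line of chorioretinal cells from a cell bank. The set was fixed by name as 10 genes, comprising 2 ligands, 2 receptors and 6 binding proteins. Of these, 8 were found by symbol among the 21314 rows of the deposited gene table. IGFBP2 and IGFBP6 matched no row by symbol and were not analysed here. They may be present among the 6660 rows without a symbol. All 4 libraries belong to 1 group, titled static and numbered 1 to 4. The cells were kept in Dulbecco's modified Eagle medium with heat-inactivated fetal bovine serum, penicillin and streptomycin, in a humidified incubator with carbon dioxide, and no other agent is named. Every library came from 1 bank lot of 1 line, and nothing in the labels says that the cultures were separate, so each standard deviation (SD) describes only the spread among these libraries. There was no second group, and no test between conditions could be made.

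IGF1 and IGF2 are secreted peptides related to insulin that promote growth and survival of cells. Both act through IGF1R, a receptor tyrosine kinase at the cell surface, whereas IGF2R, which is also a mannose 6-phosphate receptor, takes up IGF2 for breakdown in lysosomes and carries lysosomal enzymes. The binding proteins (IGFBPs) are secreted, hold the ligands in the extracellular space and can either restrain or prolong their action. Endothelial and mesenchymal cells both make several of them, and the liver is the main source of circulating IGF1.

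The libraries held between 20366946 and 20550610 estimated counts. Levels are given as counts-per-million (CPM) after trimmed mean of M-values (TMM) scaling, which is meant to correct for differences in composition between libraries. Whether it did so fully for library 2 was not tested. CPM is not divided by transcript length, and no transcript lengths were used here, so CPM values of different genes are counts set side by side and not an order of molecules. Library 2 stood apart from the others in composition, and genes for ribosomal proteins took 15.0% of its counts against 6.08% to 6.66% elsewhere. The reason for this difference was not tested. The value of library 2 is given separately for each family gene, and several results are also given without it. Of the markers listed for each cell type, 10 of 10 fibroblast and mesenchymal genes reached 1 CPM in every library, against 3 of 11 endothelial genes, 4 of 5 of the retinal pigment epithelium and 0 of 3 of hepatocytes. Among all rows with a symbol, 64.2% reached that level in every library. The endothelial marker ROBO4 and the hepatocyte marker SERPINA1 had no count. Summed over a list, markers lay between 41186 and 46586 CPM for mesenchymal genes and between 44.8 and 139 CPM for endothelial genes, the lowest endothelial sum being that of library 2. That order rested on FLT1, which encodes a VEGF receptor, at 126, 19.7, 122 and 96.1 CPM. The other 10 endothelial genes summed to 12.8, 25.0, 17.5 and 14.7 CPM, with library 2 the highest. The pigment epithelium sum was 1117 CPM in library 2 and 377 to 440 CPM elsewhere. It rested on SERPINF1 and RDH5, at 904 and 211 CPM in library 2, whereas BEST1 was 1.48 CPM there against 15.1 to 29.8 CPM elsewhere and RPE65 was 1.23 CPM against 1.18 to 2.04 CPM. The hepatocyte sum was 2.10 CPM in library 2 and 0.864 to 0.943 CPM elsewhere.

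RF/6A cells carried transcripts of 4 binding proteins and both receptors in every library, and few counts fell on the ligands. Of the 8 genes with a row, 7 reached 1 CPM in all 4 libraries, and IGF1 was below it in all 4. Among all rows of the deposited file, 52.9% met that rule, and 64.2% of rows with a symbol did. The median over the 8 genes of the mean level was 124 CPM, beside 3.61 CPM over all rows and 10.5 CPM over rows with a symbol. Together the 8 genes took 0.457%, 0.240%, 0.470% and 0.458% of the counts of libraries 1 to 4. The share of library 2 was the lowest. In RNA from whole cultures, fewer cells making a transcript and less of it per cell cannot be told apart.

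**Figure D1:**
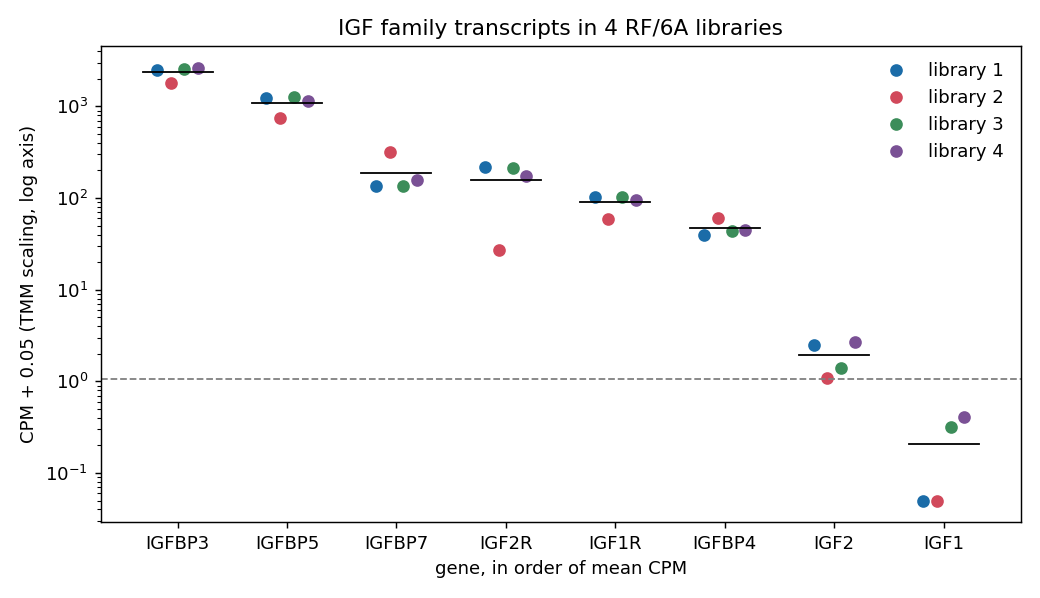
Points show CPM + 0.05 (log axis) of each family gene by library, coloured by library, black bars are means over all 4, and the dashed line marks 1 CPM. IGFBP3 and IGFBP5 lie between 747 and 2652 CPM, IGF2 lies just above the line and IGF1 below it, and library 2 is the lowest point for IGF2R at 27.0 CPM and the highest for IGFBP7 at 318 CPM.

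Among the ligands, IGF1 (ENSMMUG00000002235) had 0, 0, 6 and 8 counts in libraries 1 to 4. Counts were seen in libraries 3 and 4 only, at 0.27 and 0.362 CPM. With 3 counts taken as the one-sided limit that a count of 0 allows, the level could reach 0.136 CPM in library 1 and 0.185 CPM in library 2. Over the 4 libraries together its 14 counts gave an exact 95% Poisson interval of 0.0927 to 0.285 CPM, which covers counting error only, and its mean was 0.158 ± 0.186 CPM (SD, n = 4). Without library 4, with the other libraries scaled again, the mean was 0.0878 CPM.

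IGF2 (ENSMMUG00000047449), the ligand most tied to fetal growth, had 54, 17, 30 and 58 counts, or 2.46, 1.05, 1.35 and 2.62 CPM. Libraries 1 and 4 were high, and libraries 2 and 3 were low. The exact Poisson interval of library 1, 1.85 to 3.21 CPM, did not overlap that of library 2, 0.611 to 1.68 CPM. It overlapped that of library 3, 0.909 to 1.92 CPM. The interval of library 4, 1.99 to 3.39 CPM, overlapped neither that of library 2 nor that of library 3. The mean was 1.87 ± 0.787 CPM (SD, n = 4). Without TMM scaling library 2 had 0.832 CPM, which took IGF2 out of the genes that reached 1 CPM in every library. In the RefSeq annotation of assembly T2T-MMU8v2.0 the next protein-coding gene to IGF2 is INS, which encodes insulin and had no count in any library. The strandedness of the libraries is not given in the sources used here, so reads from transcripts that overlap IGF2 cannot be told apart from its own.

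The signalling receptor IGF1R (ENSMMUG00000012305) had 102, 59.6, 102 and 95.9 CPM in libraries 1 to 4, with a mean of 89.9 ± 20.4 CPM (SD, n = 4). Library 2 lay below the other 3, which had a mean of 100.04 ± 3.61 CPM (SD, n = 3).

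IGF2R (ENSMMUG00000015658), the clearance and sorting receptor, had 216, 27.0, 214 and 175 CPM, from 4742, 437, 4763 and 3862 counts. Library 2 had the only low value, and the other 3 libraries differed from one another by less than any of them did from it. The mean of 158 ± 89.3 CPM (SD, n = 4) became 201 ± 23.2 CPM (SD, n = 3) in libraries 1, 3 and 4, which was 7.47 times the level of library 2. The exact Poisson interval in library 2 was 24.5 to 29.6 CPM.

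IGFBP3 (ENSMMUG00000013764), the main carrier of IGFs in blood, collected the most counts of the 8 family genes with a row. It measured 2516, 1813, 2572 and 2652 CPM in libraries 1 to 4, with a mean of 2388 ± 387 CPM (SD, n = 4), and was the gene with rank 37 of 21314 by mean CPM. Library 2 was the lowest, and the other 3 had a coefficient of variation of 2.66%. IGFBP3 alone took between 0.144% and 0.285% of all counts of a library.

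IGFBP5 (ENSMMUG00000041480), a binding protein that also attaches to extracellular matrix, measured 1229, 747, 1264 and 1133 CPM, with a mean of 1093 ± 237 CPM (SD, n = 4) and rank 125. Here too library 2 was the lowest. In the RefSeq annotation IGFBP5 lies next to IGFBP2, and IGFBP3 lies next to IGFBP1, which likewise matched no row here.

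IGFBP7 (ENSMMUG00000014011), which binds IGFs weakly and is deposited in vessel walls and stroma, went the other way. It measured 134, 318, 134 and 158 CPM, with a mean of 186 ± 88.4 CPM (SD, n = 4) and of 142 ± 13.9 CPM (SD, n = 3) without library 2. The highest value was that of library 2.

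IGFBP4 (ENSMMUG00000009384), which is cut by the protease pappalysin to release IGFs, measured 39.4, 60.4, 43.6 and 44.5 CPM, with a mean of 47.0 ± 9.20 CPM (SD, n = 4). Library 2 was the highest after TMM scaling. In plain CPM, with no scaling factor, the values were 42.6, 47.9, 47.3 and 47.9, so that libraries 2 and 4 were level and library 1 was the lowest.

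In order of mean CPM, which compares counts and not molecules, the genes ran IGFBP3, IGFBP5, IGFBP7, IGF2R, IGF1R, IGFBP4, IGF2 and IGF1. IGFBP3, IGFBP5, IGF2 and IGF1 kept their places in every library, and the middle of the order did not. IGF2R had more counts than IGFBP7 and IGF1R in libraries 1, 3 and 4 and fewer than both in library 2. IGF1R and IGFBP4 were 59.6 and 60.4 CPM in library 2, a difference within their counting intervals, and were apart elsewhere.

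The gap test of Dixon was used to ask which genes had a library apart from the other 3, on log2(CPM + 0.5). It marks about 1 in 20 groups by chance, and in simulated data it found 41% of genes set 4-fold apart in library 2. The simulated spread beyond counting error, a dispersion of 0.04, exceeded the 0.0186 estimated from libraries 1, 3 and 4. The 41% is therefore not the rate at which the test finds such genes in these data. A gene that the test does not mark may still have a library apart. Of the 7 family genes that averaged 1 CPM or more, library 2 lay apart and lowest for 3, namely IGF2R, IGF1R and IGFBP3, and apart and highest for none. Over all 12453 genes that did so, library 2 lay apart and lowest in 21.5% and apart and highest in 14.7%, and another library lay apart in 0.675%. No family gene had library 1, 3 or 4 apart after TMM scaling. In plain CPM the count was 5, with library 2 low for IGFBP5 and library 1 low for IGFBP4 in addition. On the linear scale IGF2R no longer passed and IGFBP7 did, with library 2 highest.

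The size of the library 2 difference varied widely within the family. Its level relative to the mean of libraries 1, 3 and 4 was 0.134 for IGF2R, 0.489 for IGF2, 0.596 for IGF1R, 0.619 for IGFBP5, 0.703 for IGFBP3, 1.42 for IGFBP4 and 2.23 for IGFBP7. The median gene had 0.945 with TMM and 0.694 with plain CPM, so these ratios shift together with the scaling, and that of IGFBP4 was 1.04 with plain CPM. Relative to the median gene, IGF2R was 0.142, IGF1R 0.631, IGFBP4 1.50 and IGFBP7 2.37. Of all 12453 genes, 6.56% had a lower ratio than IGF2R and 83.6% a lower ratio than IGFBP7.

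**Figure D2:**
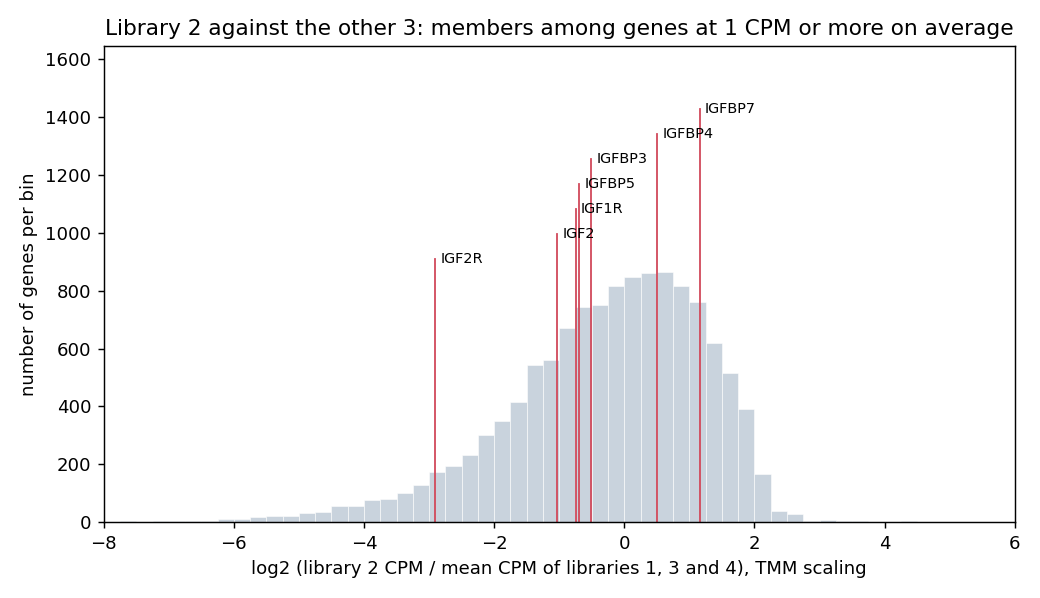
Grey bars show how the 12453 genes that averaged 1 CPM or more are distributed by the log2 ratio of library 2 to the mean of libraries 1, 3 and 4, and red lines mark the family genes, with line heights staggered for the labels only (79 genes with no count in library 2, and 5 outside the binned range, are not drawn). IGF2R lies in the left flank at a ratio of 0.134, IGFBP7 lies to the right at 2.23, and the others lie between 0.489 and 1.42.

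Ratios of 2 genes within a library are free of library scaling. Transcript length cancels between libraries only if the transcripts in use, and any loss of RNA that depends on length, are the same. Neither was examined here. The IGF2R to IGF1R count ratio was 2.12, 0.452, 2.09 and 1.82 in libraries 1 to 4. The exact 95% interval in library 2, 0.403 to 0.507, lay far below the lowest of the others, 1.73 to 1.92 in library 4. Both receptors were low in library 2, and IGF2R by 4.44 times more than IGF1R.

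M6PR encodes the other mannose 6-phosphate receptor, which sorts lysosomal enzymes without binding IGF2. It measured 101, 146, 97.04 and 102 CPM, and the ratio of IGF2R to M6PR counts was 2.14, 0.185, 2.21 and 1.72. Library 2 thus had the lowest IGF2R and the highest M6PR of the set.

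INSR, the insulin receptor, can pair with IGF1R into hybrid receptors. It measured 14.7, 2.22, 13.1 and 13.2 CPM. The ratio of IGF1R to INSR counts was 6.94, 26.8, 7.80 and 7.29, and the interval in library 2, from 36 INSR counts, was 19.2 to 38.5. INSR was thus low in library 2 by a larger factor than IGF1R.

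Within the binding proteins, IGFBP3 took 64.2%, 61.7%, 64.1% and 66.5% of the counts that the 4 measured IGFBP genes shared in libraries 1 to 4. IGFBP5 took 31.4%, 25.4%, 31.5% and 28.4%. IGFBP7 took 10.8% in library 2 and 3.35% to 3.97% in the others, and IGFBP4 took 2.05% in library 2 and 1.01% to 1.12% in the others. The ratio of IGFBP3 to IGFBP5 counts was steady by comparison, at 2.05, 2.43, 2.04 and 2.34. The ratio of IGFBP7 to IGFBP3 counts was 0.0532, 0.175, 0.0522 and 0.0596, which made library 2 higher by 3.18 times than the mean of the others.

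**Figure D3:**
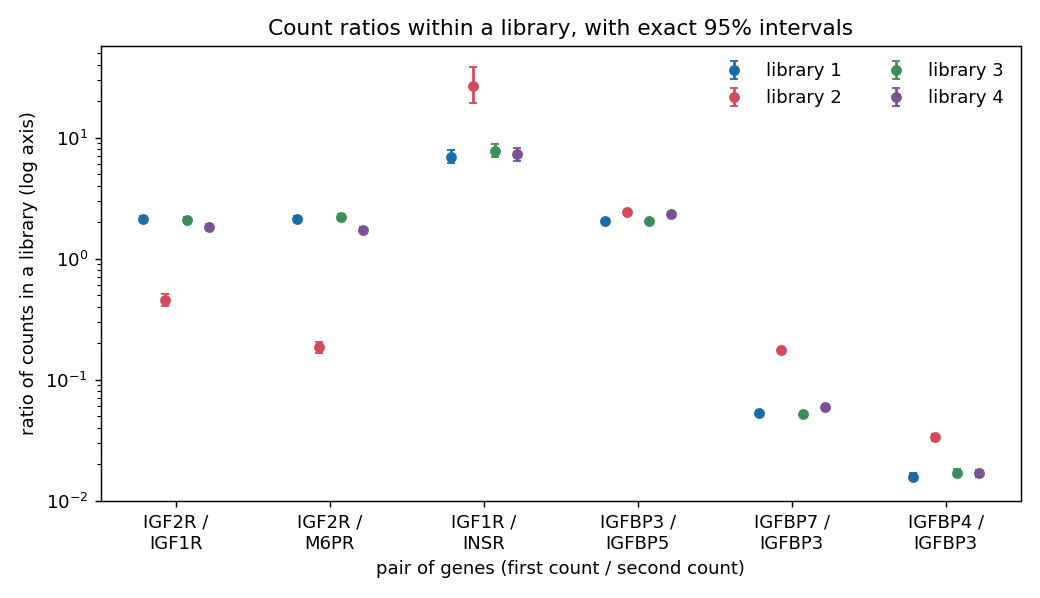
Points give the ratio of the counts of 2 genes in each of the 4 libraries on a log axis, and bars give exact 95% (Clopper-Pearson) intervals for counting error, which are often smaller than the points. Library 2 departs downward for IGF2R / IGF1R (0.452) and IGF2R / M6PR (0.185), departs upward for IGF1R / INSR (26.8), IGFBP7 / IGFBP3 (0.175) and IGFBP4 / IGFBP3 (0.0333), and stays close to the others for IGFBP3 / IGFBP5 (2.43).

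The biological coefficient of variation was estimated by edgeR for spread beyond counting error. For each gene the estimate is drawn toward those of other genes, so it is not the spread of that gene alone. Over 4 libraries it was 66.7% for IGF2R, 42.9% for IGFBP7, 40.4% for IGF2, 34.6% for IGFBP5, 34.2% for IGF1R, 32.8% for IGFBP3 and 32.3% for IGFBP4, beside a median of 38.3% over 12167 genes. IGF1 did not pass the count filter of this fit. The plain coefficient of variation of CPM was 16.2% for IGFBP3, below its estimate, and 47.6% for IGFBP7, above it. Without library 2 the estimates were 7.16% for IGFBP3, 7.75% for IGFBP5, 7.99% for IGF1R, 9.39% for IGFBP7, 9.74% for IGFBP4, 10.01% for IGF2R and 25.4% for IGF2, beside a median of 13.0% over 12861 genes. Of the 7 family genes in this fit, IGF2 was the most variable among libraries 1, 3 and 4, and also the one with the fewest counts.

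IGFBP3 was also compared in its pattern over the libraries with the other 7438 named genes of at least 10 CPM. The nearest by root mean square difference of centred log2(CPM + 0.5) values were CSTF3 (0.0076), PROS1 (0.0125) and TRAFD1 (0.0144). With 4 libraries, of which 1 differs, this is a description only.

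Genes that act around the family were examined in 9 lists, which hold 115 distinct genes, of which 96 had a row. Of these 96, 75 (78.1%) reached 1 CPM in every library, and 81 did without library 2. The 6 that were added are IRS2, PAPPA, GNPTAB, PIK3R3, RICTOR and TSC1, all of which had less than 1 CPM in library 2. A rule over fewer libraries is easier to meet, and the share of all rows without library 2 is not given here. The lists were chosen with earlier results of these data known. Genes with a symbol have more counts in general, as the 64.2% above shows, and the counts of each list below stand beside that share.

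Of the other ligands, receptors and carriers, INSR was the only one of 3 measured genes to reach 1 CPM in every library, with a mean of 10.8 ± 5.77 CPM (SD, n = 4). IGFALS, the acid-labile subunit that stabilises IGFBP3 complexes in blood, had 2, 1, 0 and 0 counts.

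Of the proteases that cut IGFBPs and their inhibitors, 3 of 6 reached 1 CPM in every library. PAPPA, which encodes pappalysin, measured 7.28, 0.617, 6.69 and 5.16 CPM, with library 2 again the lowest. Its relative PAPPA2 had 5 counts in library 4 and none elsewhere. The stanniocalcins, secreted inhibitors of pappalysin, were present throughout, with STC2 at 177 ± 17.5 CPM (SD, n = 4) and STC1 at 17.0 ± 1.48 CPM. ADAM12, a metalloprotease reported to cut IGFBP3 and IGFBP5, measured 64.9, 12.1, 66.9 and 51.9 CPM, and ADAM28 stayed at or below 0.409 CPM.

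Of the receptor substrates and adaptors, 8 of 13 reached 1 CPM in every library. The highest by count were SHC1, which links receptors to the RAS pathway, at 412 ± 49.6 CPM (SD, n = 4), CAV1, the coat protein of caveolae, at 124 ± 67.3 CPM, and GRB2, an adaptor, at 83.1 ± 3.37 CPM. The 2 main docking proteins of IGF1R differed between libraries in different ways. IRS1 was nearly level at 46.5, 42.7, 46.6 and 48.3 CPM, although library 2 was lower in plain CPM, at 33.9. IRS2 had 12.5, 0.247, 13.1 and 11.5 CPM, its library 2 value resting on 4 counts. IRS4 had no count.

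In the branch of phosphoinositide 3-kinase, AKT and mTOR, which carries the growth and survival signal, 20 of 23 genes reached 1 CPM in every library. All 23 did without library 2, although fewer libraries make this rule easier to meet. The highest by count were the lipid phosphatase INPPL1 at 112 ± 28.0 CPM (SD, n = 4) and the kinase GSK3B at 106 ± 30.2 CPM. PIK3R3, a regulatory subunit, had 3.96, 0, 3.46 and 3.08 CPM. In the RAS and MAP kinase branch, 15 of 15 did, among them MAP2K2 at 181, 722, 182 and 213 CPM and NRAS at 119 ± 39.6 CPM. Library 2 had the highest MAP2K2 and the lowest NRAS.

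Of 12 genes of mannose 6-phosphate tagging and sorting, the lysosomal route of IGF2R, 11 reached 1 CPM in every library. CTSD, which encodes the lysosomal protease cathepsin D, a cargo of this route, measured 632, 1597, 640 and 758 CPM. The sorting nexin gene SNX1 had 244 ± 71.2 CPM (SD, n = 4), and VPS26A, a retromer subunit, had 216, 65.0, 230 and 212 CPM. So in library 2 CTSD, M6PR and SNX1 (347 CPM) were at their highest while IGF2R and VPS26A were at their lowest. Over the 12 genes library 2 lay apart and lowest for 3 and apart and highest for 3. Their median ratio of library 2 to the mean of libraries 1, 3 and 4 was 0.986, beside 0.945 for the median gene. GNPTAB, which encodes subunits of the enzyme that adds the mannose 6-phosphate tag, had 56.9, 0.432, 2.65 and 14.4 CPM and differed among all 4 libraries.

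All 6 measured genes tied to IGF2 messenger RNA reached 1 CPM in every library. The highest by count were the RNA-binding proteins IGF2BP2, at 307 ± 51.8 CPM (SD, n = 4), and IGF2BP3, at 126 ± 33.8 CPM, and the insulator protein CTCF, at 54.3 ± 18.6 CPM. Of 8 other imprinted growth genes, 4 did, with MEST at 243, 64.2, 255 and 261 CPM, SGCE at 74.6 ± 18.2 CPM and SLC22A18 at 3.71 ± 2.10 CPM, while DLK1 and KCNQ1 had no count.

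Of 10 genes outside the family whose proteins carry an IGFBP-type domain, 7 reached 1 CPM in every library. The matricellular gene CCN1 had 713 ± 36.5 CPM (SD, n = 4). CCN2 had 519, 238, 534 and 562 CPM, and CCN4 had 342, 184, 386 and 388 CPM, both lowest in library 2. CRIM1, which encodes a membrane protein, had 305, 9.25, 279 and 266 CPM. Over all 9 lists, 82 genes averaged 1 CPM or more, and library 2 lay apart and lowest for 35 and apart and highest for 8, beside 21.5% and 14.7% of the 12453 genes above.

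**Figure D4:**
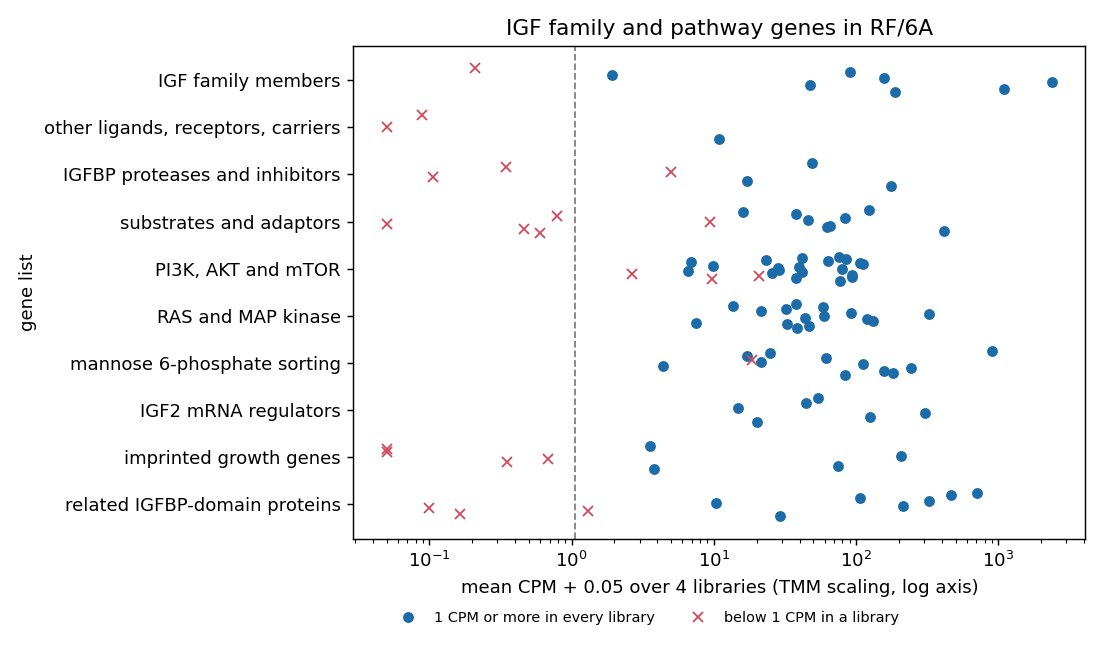
Each symbol is the mean CPM + 0.05 of a gene over 4 libraries on a log axis, for the family and the 9 lists, with filled circles for genes at 1 CPM or more in every library, crosses for the others and a dashed line at 1 CPM. All genes of the 2 signalling branches have means right of the line, and 20 of 23 and 15 of 15 are filled circles. IGF1 is the one family gene left of the line.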

How the data were processed

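RNA sequencing of 4 RF/6A libraries was analysed as 1 group. The authors deposited estimated counts per Ensembl gene, rounded to whole numbers. Per the submitters' processing notes the tools were Salmon and DESeq2, with no version or role. Genome build, annotation release and strandedness are among the details not given in the sources used here. Because Salmon divides ambiguous reads between similar transcripts, related genes can carry an assignment error. Symbols came from a table of Ensembl identifiers, which named 14654 of 21314 rows, and 133 of 157 listed genes matched.

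Counts were scaled with TMM in edgeR 4.0.16 (R 4.3.3) and expressed as CPM. Biological coefficients of variation came from an edgeR fit without groups, after filterByExpr with a minimum count of 10. Poisson and Clopper-Pearson intervals are exact, at 95%. The code was tested on simulated data in which library 2 was set 4-fold apart in 200 genes. The gap test recovered 41% of these genes and called 5.10% of the unchanged ones. The simulated dispersion was 0.04, against 0.0186 estimated without library 2, and the changed genes were drawn only from rows above a count limit. These shares are therefore not rates for the real libraries. The 4 planned comparisons between genes per coding length were not made, because no lengths or sequences were used here.

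The family genes and lists were chosen with earlier results of these data known. Genes named were the family, a few fixed relatives and the highest and lowest by count of each list, not all of which are given. IRS1, IRS2, GNPTAB, CRIM1, FLT1, SERPINF1, RDH5, BEST1 and RPE65, and the genes named only as added without library 2, were chosen after their values were seen.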

Additional observations from a re-analysis of the deposited data

Results flagged for a closer look

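Dixon's gap test was run on 41 genes given above, and 21 of them had 1 outlying library. Chance would give about 1 in 20, and over all 12453 genes that averaged 1 CPM or more the share was 36.9%. The 41 genes were not held to that limit, and PAPPA2 (mean 0.0565 CPM) is among the 21. Some of the 41 had no count in any library, so the test could not mark them. The 2 shares are therefore not of like sets. The outlying library was library 2 in 20 of the 21, low in 16 and high in 4, so these values are not independent of each other.

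Among family genes, library 2 was low, in CPM, for IGF2R (26.96), IGF1R (59.6) and IGFBP3 (1813). Among receptors, substrates and proteases it was low for INSR (2.22), SHC1 (338), CAV1 (23.4), ADAM12 (12.1) and PAPPA (0.617). It was also low for PIK3R3 (0), NRAS (60.6), VPS26A (64.96), IGF2BP3 (75.1), CTCF (27.1), MEST (64.2), CCN2 (238) and CCN4 (184).

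Library 2 was high for GSK3B (151), MAP2K2 (722), M6PR (146) and SLC22A18 (6.85). Library 4 was high for PAPPA2 (0.226), which rests on 5 counts. Of 9 further genes, which were named after their values were seen and are not in these counts, library 2 was low for IRS2 (0.247), FLT1 (19.7) and CRIM1 (9.25) and high for SERPINF1 (904) and RDH5 (211).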

How the results depend on the processing

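The count of family genes at 1 CPM or more in every library was 7, and 6 with plain CPM or a threshold of 5 CPM. It was 7 with DESeq2 size factors, with TMM on filtered genes, with a threshold of 0.5 CPM and without any single library. For the 96 pathway genes the count of 75 ranged from 75 to 81 without any single library and was 78 at 0.5 CPM and 66 at 5 CPM. The number of family genes with a library apart was 3, and 5 with plain CPM, where IGFBP5 (library 2 low) and IGFBP4 (library 1 low) were added. It was 3 with a pseudocount of 0.05, and also on the linear scale. The median coefficient of variation of the 7 fitted family genes was 34.6%, with a range of 9.39% (without library 2) to 43.6% when a library was left out. Of 56 alternative means of family genes, 55 stayed within 1 SD, and that of IGFBP3 without library 2, with the other libraries scaled again, was 2787 CPM, against 2579.9 CPM for the same libraries at the scaling above. The comparisons planned per coding length, with their alternatives, were not run. No paired analysis was possible because there is 1 group. IGF1, at 14 counts in all, and IGF2, at 159, are limited by depth.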
